A study of Mus musculus with 6 samples.

Results

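The genes described here are 9 transcripts of mast cells, among 34866 gene identifiers in a table of RNA-seq counts from the antral mucosa of the mouse stomach. They were chosen by name: Mcpt1 and Mcpt2 as proteases of mucosal mast cells, Mcpt4, Cma1, Tpsb2, Tpsab1 and Cpa3 as proteases of connective tissue mast cells, and Ms4a2 and Hdc as genes of both kinds. All 9 were found in the table, and 8 passed the filter on low counts and were tested. The series compares 3 libraries of genotype Muc6 -/-, called knockout 1 to 3, with 3 libraries of genotype Muc6 +/+, called wild type 1 to 3, and asks how loss of this gland mucin relates to gastric carcinogenesis. The labels give no age, strain, treatment or sex, do not say how the alleles were made, and do not state that the libraries came from separate animals.

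Mast cells are resident immune cells that store proteases, proteoglycans and histamine in granules and release them when IgE on their surface meets antigen. In mice, those of the gut epithelium and lamina propria carry the chymases Mcpt1 and Mcpt2, expand during intestinal worm infection and depend on T cell cytokines and TGF-beta for this phenotype. Those of the submucosa, muscle and skin carry the chymase Mcpt4, the chymase-like protease Cma1, tryptases and carboxypeptidase A3.

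Muc6 was at 0.0425, 0 and 0 CPM in knockout 1, 2 and 3, against 396, 403 and 510 CPM in wild type 1, 2 and 3. CPM is the count scaled to the library's total after composition scaling, a reads-per-library measure with no length correction, and total counts were 19839799 to 21354029 per library. The Y-linked Ddx3y was at 39.3 to 41.1 CPM in the knockout libraries and at 0.058 to 0.326 CPM in the wild-type libraries, so sex and genotype cannot be told apart. Both libraries numbered 1 stood apart from the others of their genotype. Summed transcripts of 13 fibroblast, muscle and vessel genes were at 463, 1320 and 994 CPM in knockout 1, 2 and 3, against 216, 1700 and 3280 CPM in wild type 1, 2 and 3. The sums of 12 neutrophil genes were 196, 4.57 and 6.19 CPM in knockout 1, 2 and 3, against 0.435 to 1.45 CPM in the wild type. The stomach markers Gkn2 and Tff2 were abundant in every library, at 13700 to 19200 and 12800 to 17600 CPM in the knockout and at 81600 to 96400 and 4700 to 6870 CPM in the wild type.

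The chymase genes Mcpt1, Mcpt2 and Mcpt4 were far higher in the knockout libraries, and the other mast cell genes were not called. Mcpt1 was higher by 7.24 on the log2 scale, Mcpt4 by 6.43 and Mcpt2 by 4.86, in each case with all 3 knockout values above all 3 wild-type values. Cma1, Tpsb2, Cpa3, Ms4a2 and Hdc did not pass the test, with differences of 0.64 to 1.88, and Tpsab1 had too few counts to be tested. Of the 8 tested genes 3 were higher and 0 lower at an adjusted p under 0.05 (edgeR), where 38.4% of all 14017 tested genes were called, 19.3% as higher and 19.2% as lower. None of the 8 differences was negative, so at an unadjusted p under 0.05 the count of lower genes was also 0, as it was with DESeq2 and limma-voom. Genotypes did not overlap for 3 of the 8, all higher, where 54.8% of all tested genes did not overlap and 28.2% did so as higher. In bulk tissue, more cells of a type and more RNA per cell cannot be told apart. The median difference was 1.48 over the 8 tested genes and 0.02 over all tested genes.

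Mcpt1, Mcpt2, Mcpt4 and Cma1 lie in one cluster of serine protease genes on chromosome 14 (mm10, GENCODE M21 coordinates). Mcpt1 (ENSMUSG00000022227.5) is at 56017971 to 56020384 on the plus strand, Mcpt2 (ENSMUSG00000022226.6) at 56042041 to 56044642 on the plus strand, Mcpt4 (ENSMUSG00000061068.7) at 56059629 to 56062313 on the minus strand and Cma1 (ENSMUSG00000022225.7) at 55941451 to 55944675 on the minus strand. The bases before the starts are shown because the start regions of Mcpt1 and Mcpt4, assigned to different mast cell types but both higher here, closely match each other, and those of Cma1 and Cpa3 do not. Whether this likeness bears on their levels was not tested. Each line is 250 bases that end at the last base before the RefSeq start, 5′ to 3′ on the gene's strand (RefSeq, GRCm38.p6), with capitals on the GATA motif. The windows are chr14:56017714-56017963 for Mcpt1, chr14:56062311-56062560 for Mcpt4, chr14:55944676-55944925 for Cma1 and chr3:20242182-20242431 for Cpa3.
Mcpt1: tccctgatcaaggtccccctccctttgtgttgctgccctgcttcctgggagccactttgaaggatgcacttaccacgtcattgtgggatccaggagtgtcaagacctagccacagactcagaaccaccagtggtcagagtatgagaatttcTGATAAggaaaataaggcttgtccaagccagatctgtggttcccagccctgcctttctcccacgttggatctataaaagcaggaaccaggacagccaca
Mcpt4: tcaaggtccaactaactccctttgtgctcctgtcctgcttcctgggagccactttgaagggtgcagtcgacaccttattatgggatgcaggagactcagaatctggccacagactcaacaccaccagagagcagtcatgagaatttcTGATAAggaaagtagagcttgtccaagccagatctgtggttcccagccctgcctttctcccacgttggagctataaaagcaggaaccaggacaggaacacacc
Cma1: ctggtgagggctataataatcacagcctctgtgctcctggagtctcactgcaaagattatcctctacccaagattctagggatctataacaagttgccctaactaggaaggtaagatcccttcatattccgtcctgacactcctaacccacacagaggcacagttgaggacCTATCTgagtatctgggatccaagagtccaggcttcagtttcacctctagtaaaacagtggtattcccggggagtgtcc
Cpa3: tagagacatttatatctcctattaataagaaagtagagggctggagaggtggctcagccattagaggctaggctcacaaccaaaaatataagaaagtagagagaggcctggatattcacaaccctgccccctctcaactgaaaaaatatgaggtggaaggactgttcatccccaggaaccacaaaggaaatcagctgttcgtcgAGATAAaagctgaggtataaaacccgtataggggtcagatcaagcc

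Aligned end to end, the Mcpt1 and Mcpt4 windows matched at 81.9% of columns, while Cma1 matched Mcpt1 at 51.3% and Mcpt4 at 54.1%. The longest identical run of Mcpt1 and Mcpt4 was 53 bases, from -83 to -31 before the Mcpt1 start and from -87 to -35 before the Mcpt4 start. GATA factors, among them Gata2, are needed for mast cell development. The GATA motif was searched on either strand as the word AGATAA, as the word TGATAA, and as the same words with a final G, that is the word AGATAG and also the word TGATAG. It was found in all 6 members with a window in the RefSeq table, against 26.5% of 32851 windows of the same length. The match was TGATAA at -99 to -94 of Mcpt1 and at -103 to -98 of Mcpt4, CTATCT, the reverse strand form, at -79 to -74 of Cma1, and AGATAA at -46 to -41 of Cpa3. Ms4a2 held 3 such matches and Hdc held 1. The letters TGTGGT, which RUNX factors bind, were in the windows of Mcpt1, Mcpt4 and Cpa3 (either strand) and in 4614 of the 32851 windows, and the E-box letters CACGTG or CATGTG, which MITF can bind, were in none of the 6 and in 17.6% of all. A match is a description of the letters, and no binding was measured. Mcpt2, Tpsb2 and Tpsab1 were not among the windows.

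Mcpt1 encodes a chymase that mucosal mast cells secrete into the gut lumen and blood, and it had the largest difference. It was at 203, 39.2 and 65.8 CPM in knockout 1, 2 and 3, against 0.924, 0.337 and 0.754 CPM in wild type 1, 2 and 3. The lowest knockout library was far above the highest wild-type library. Mean levels were 103 ± 88.2 CPM in the knockout and 0.672 ± 0.302 CPM in the wild type (SD, n = 3 each), a log2 difference of 7.24 (SE 0.94, edgeR adjusted p = 0.00406). Leaving out knockout 1 gave 6.27 (adjusted p = 3.32e-04). With limma-voom the call ended (6.96, adjusted p = 0.083).

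Mcpt2, the neighbouring mucosal chymase-like gene, had the highest level of all 9 genes in both genotypes. It was at 420, 249 and 223 CPM in knockout 1, 2 and 3, against 10.1, 10.3 and 10.4 CPM in wild type 1, 2 and 3. The 3 wild-type values were nearly equal, so the spread lay among the knockout libraries. Mean levels were 298 ± 107 CPM in the knockout and 10.2 ± 0.171 CPM in the wild type (SD, n = 3 each), and the log2 difference was 4.86 (SE 0.27, adjusted p = 1.37e-04). It was called under every one of the 15 alternative settings, at 4.49 to 5.27, adjusted p up to 0.003.

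Mcpt4 encodes the main chymase of mouse connective tissue mast cells and is regarded as the counterpart of human chymase. It was at 240, 65.4 and 38.2 CPM in knockout 1, 2 and 3, against 0.869, 0.675 and 2.44 CPM in wild type 1, 2 and 3. The groups were again far apart, and the highest wild-type library was wild type 3, the one with the most muscle transcripts. Mean levels were 114 ± 109 CPM in the knockout and 1.33 ± 0.966 CPM in the wild type (SD, n = 3 each), a log2 difference of 6.43 (SE 1.05, adjusted p = 0.00795). It was 5.29 without knockout 1 and 7.18 without wild type 3, and called in both. With limma-voom the call ended (6.20, adjusted p = 0.0899). The other 3 tested genes assigned to connective tissue mast cells had differences of 0.64 to 1.88, and the contrast with Mcpt4 was not tested.

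**Figure D1:**
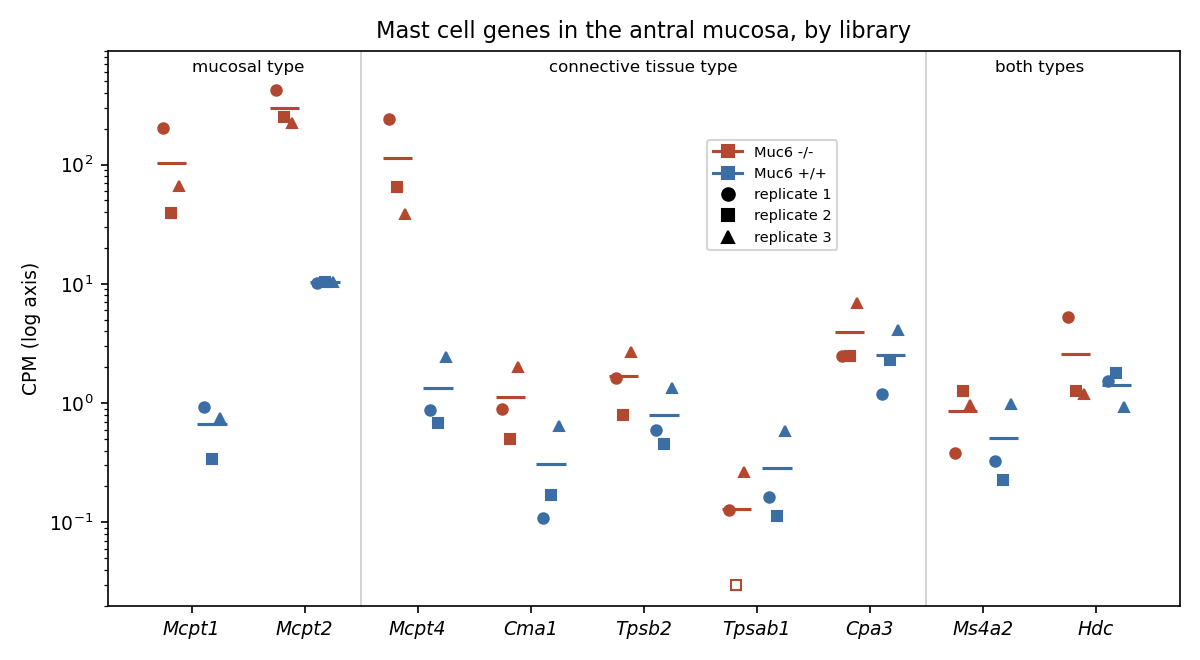
Level of each of the 9 mast cell genes in CPM (log axis) in the 3 Muc6 -/- and 3 Muc6 +/+ libraries. Each point is a library, its shape the replicate number, each line a group mean, and the open square a value of 0. Mcpt1, Mcpt2 and Mcpt4 stand apart between genotypes, with knockout values of 39.2 CPM or more for Mcpt1 against at most 0.924 CPM, while the 2 groups overlap for the other 6 genes.

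Cma1, also named Mcpt5, is an elastase-like protease of connective tissue mast cells in mice. It was at 0.892, 0.499 and 2.01 CPM in knockout 1, 2 and 3, against 0.109, 0.169 and 0.638 CPM in wild type 1, 2 and 3. Knockout 2 was below wild type 3, so the groups overlapped, and the log2 difference of 1.88 (SE 0.82) did not pass (adjusted p = 0.106). These values rest on 79 counts in the knockout and 16 counts in the wild type.

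Tpsb2 and Tpsab1 encode tryptases, trypsin-like proteases stored with heparin, and lie on chromosome 17 at 25366305 to 25369098 and 25343245 to 25345562. Tpsb2 was at 1.61, 0.79 and 2.66 CPM in knockout 1, 2 and 3, against 0.598, 0.45 and 1.33 CPM in wild type 1, 2 and 3, and the log2 difference of 1.09 (SE 0.62) did not pass (adjusted p = 0.205). Both groups overlapped, with the highest value of each in the library numbered 3. Tpsab1 had 9 counts over the knockout libraries and 15 over the wild-type libraries, and it was not tested. That is 0.127, 0 and 0.262 CPM in knockout 1, 2 and 3, against 0.163, 0.112 and 0.58 CPM in wild type 1, 2 and 3.

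Cpa3, on chromosome 3 at 20215620 to 20242181, encodes carboxypeptidase A3, a granule protease used as a general mast cell marker. It was at 2.46, 2.49 and 6.93 CPM in knockout 1, 2 and 3, against 1.2, 2.31 and 4.12 CPM in wild type 1, 2 and 3. Knockout 1 and 2 were below wild type 3, and the log2 difference of 0.64 (SE 0.59) did not pass (adjusted p = 0.418). Without knockout 3 it was -0.03 (adjusted p = 0.976).

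Ms4a2 encodes the beta chain of the high-affinity IgE receptor, and its level was low throughout. It was at 0.382, 1.25 and 0.96 CPM in knockout 1, 2 and 3, against 0.326, 0.225 and 0.986 CPM in wild type 1, 2 and 3, with a log2 difference of 0.75 (SE 0.72, adjusted p = 0.437). Hdc encodes histidine decarboxylase, which makes histamine in mast cells and also in gastric enterochromaffin-like cells and in some neutrophils. It was at 5.27, 1.25 and 1.18 CPM in knockout 1, 2 and 3, against 1.52, 1.8 and 0.928 CPM in wild type 1, 2 and 3. Only knockout 1 exceeded the wild-type range. The log2 difference of 0.85 (SE 0.66, adjusted p = 0.342) became -0.22 without knockout 1 (adjusted p = 0.749) and -0.19 without both libraries numbered 1 (adjusted p = 0.763). Knockout 1 also held the 196 CPM of neutrophil transcripts, and their part in the Hdc value was not tested.

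**Figure D2:**
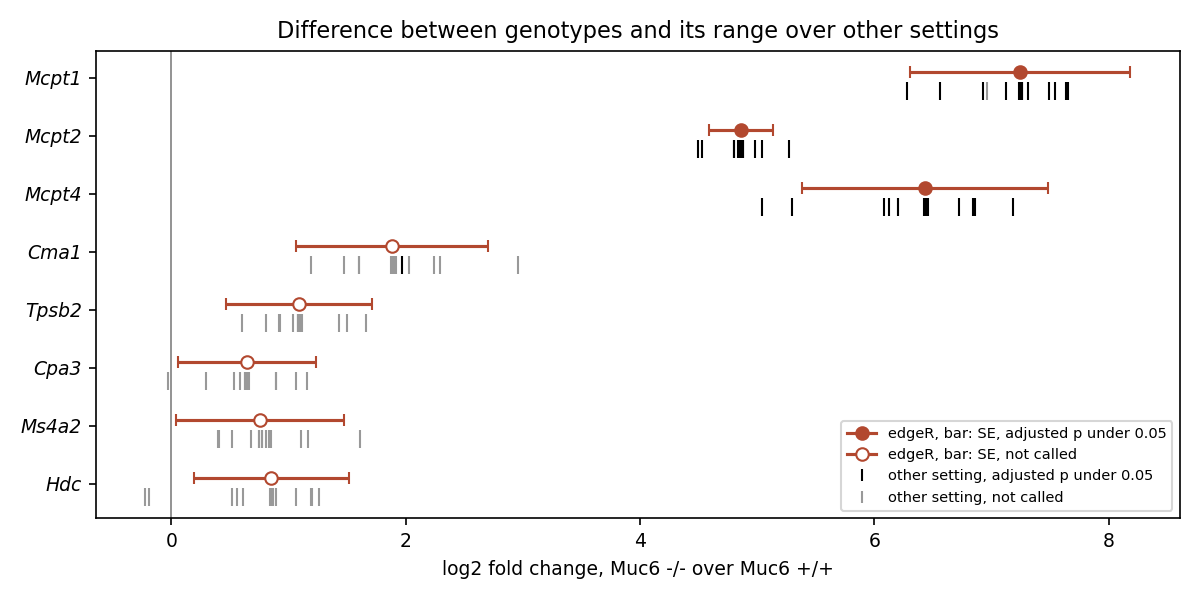
Log2 fold change of Muc6 -/- over Muc6 +/+ for the 8 tested mast cell genes. Circles are edgeR estimates with their SE, filled where the adjusted p was under 0.05, and ticks are the estimates under other settings, black where called. Mcpt1, Mcpt2 and Mcpt4 lie at 4.49 or more under all settings, Cma1 at 1.19 to 2.96, and Cpa3 and Hdc reach below 0.

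Levels of different genes can be compared once divided by exon length. In the knockout, Mcpt2 was at 280 CPM per kb, Mcpt4 at 103 and Mcpt1 at 101, and the ranges of these 3 genes overlapped from one to the next. Then came a gap that no library bridged, from at least 38.6 CPM per kb for Mcpt1 to at most 4.57 for Cpa3, which averaged 2.61 CPM per kb. Tpsb2 (1.06 CPM per kb), Cma1 (1.04), Hdc (0.401) and Ms4a2 (0.307) followed with overlapping neighbours, and Tpsab1 was lowest at 0.0619. In the wild type, Mcpt2 was alone at the top with 9.65 CPM per kb (9.47 to 9.79). Cpa3 at 1.67 CPM per kb was next, above Mcpt4 at 1.2 and Mcpt1 at 0.662, with overlapping ranges, and all further neighbours down to Tpsab1 at 0.136 overlapped as well. By mean level, Cpa3 stood below Mcpt4 and Mcpt1 in the knockout and above both in the wild type.

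The genes of the chromosome 14 cluster other than Mcpt1, Mcpt2 and Mcpt4 had low levels, at most 2.01 CPM in any library, in Cma1. Cma1 to Gzmb spans 321 kb and holds 15 protease genes of the lists used here. Mcpt9, which lies between Mcpt1 and Mcpt2, had 20 counts in the knockout libraries and 0 in the wild type. Cma2, next to Cma1, had 23 counts in the knockout and 0 in the wild type, at least 5.81-fold higher against a floor of 3 counts over the group. Mcpt8, a basophil protease on the far side of Mcpt4, had 2 counts in the knockout and 0 in the wild type, and the cathepsin G gene Ctsg had 1 and 0. Of the granzyme genes, Gzmb, a protease of cytotoxic lymphocytes, was the only one tested, with 69 counts in the knockout and 0 in the wild type, at least 17.4-fold higher (adjusted p = 0.0055). Gzmb passed the low-count filter only through the knockout libraries, so the filter favoured a higher call. Mcpt9 and Mcpt8, the neighbours of Mcpt2 and Mcpt4, were at 0.785 CPM or less in every library.

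Close copies could share reads, and the sequences bear on this directly. Of the 50-base words in the Mcpt1 and Mcpt2 transcripts, 0 occurred in any other chymase or tryptase transcript compared, and 58 of 1059 words (5.48%) of Mcpt4 occurred in Cma2. The deposited counts of Mcpt1, Mcpt2 and Mcpt4 were whole numbers in all 6 libraries. Over their lengths Mcpt1 and Mcpt4 transcripts matched at 76.0% of aligned columns, Mcpt1 and Mcpt2 at 71.8%, and Mcpt4 and Cma1 at 57.2%. Of Cma2 words 39.8% were shared, mostly with Mcpt9, so the counts of these 2 genes are uncertain.

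**Figure D3:**
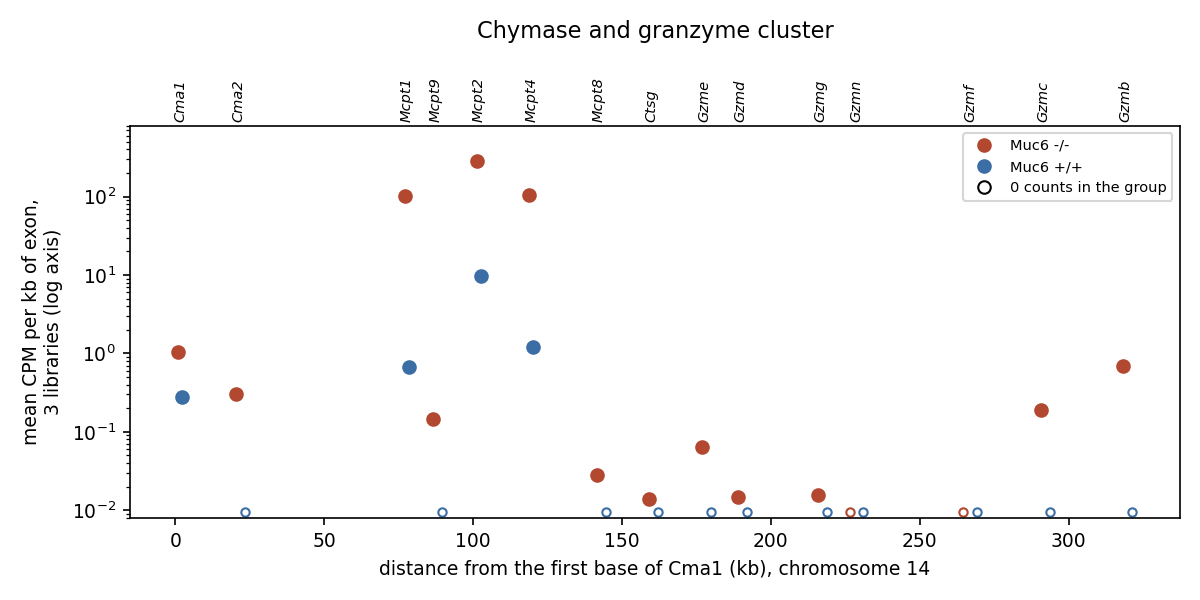
Mean level per kb of exon (CPM per kb, log axis) of the chymase and granzyme genes of chromosome 14, placed by distance from the first base of Cma1 in kb. Red points are Muc6 -/-, blue points are Muc6 +/+, and open circles at the base are genes with 0 counts in the group. The 3 genes Mcpt1, Mcpt2 and Mcpt4 reach 101 to 280 CPM per kb in the knockout, while Mcpt9 and Mcpt8 among them had 20 and 2 knockout counts.

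Within a library, the mucosal chymases Mcpt1 and Mcpt2 can be weighed against Mcpt4 and Cma1. Mcpt1 and Mcpt2 made up 72.2% of the 20335 counts of the 4 chymase genes in knockout 1 (exact binomial 95% interval 71.5% to 72.8%), 81.4% of 8530 in knockout 2 and 87.8% of 7550 in knockout 3. In wild type 1, 2 and 3 they made up 91.8% of 220 counts (87.4% to 95.1%), 92.6% of 204 and 78.4% of 245. The mean share was 80.5 ± 7.86% in the knockout and 87.6 ± 8.02% in the wild type (SD, n = 3 each), so the groups overlapped, and the total differed far more than the share. Within the total, Mcpt1 took 11.1% to 23.6% in the knockout and 2.94% to 7.73% in the wild type. Mcpt4 took 27.7%, 18.4% and 11.6% in knockout 1, 2 and 3, and 7.27%, 5.88% and 17.1% in wild type 1, 2 and 3. Cma1 took 0.103% to 0.609% in the knockout and 0.909% to 4.49% in the wild type. The connective tissue side was thus mostly Mcpt4. Cma1, Tpsb2 and Cpa3 were each highest in knockout 3, the knockout library with the smallest Mcpt4 part. The share is therefore not read as a balance of mast cell types. The binomial intervals cover counting error only.

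Relative to Cpa3 in the same library, the 3 chymases were far higher in the knockout. The ratio of Mcpt2 to Cpa3 CPM was 170, 100 and 32.2 in knockout 1, 2 and 3, against 8.41, 4.46 and 2.52 in wild type 1, 2 and 3. For Mcpt1 it was 82.6, 15.7 and 9.48 in the knockout libraries, against 0.773, 0.146 and 0.183 in the wild-type libraries, and for Mcpt4 97.3, 26.2 and 5.51 against 0.727, 0.293 and 0.592. None of these 3 sets of ratios overlapped between genotypes. Nor did those of Cma1, which rest on few counts and stood at 0.2 to 0.362 of Cpa3 in the knockout and at 0.0732 to 0.155 in the wild type. Tpsb2 (0.317 to 0.655 in the knockout, 0.195 to 0.5 in the wild type) and Ms4a2 (0.138 to 0.5 in the knockout, 0.0976 to 0.273 in the wild type) overlapped. Only the change of a ratio between libraries is read here, since its size also depends on gene length, and it was given no test.

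**Figure D4:**
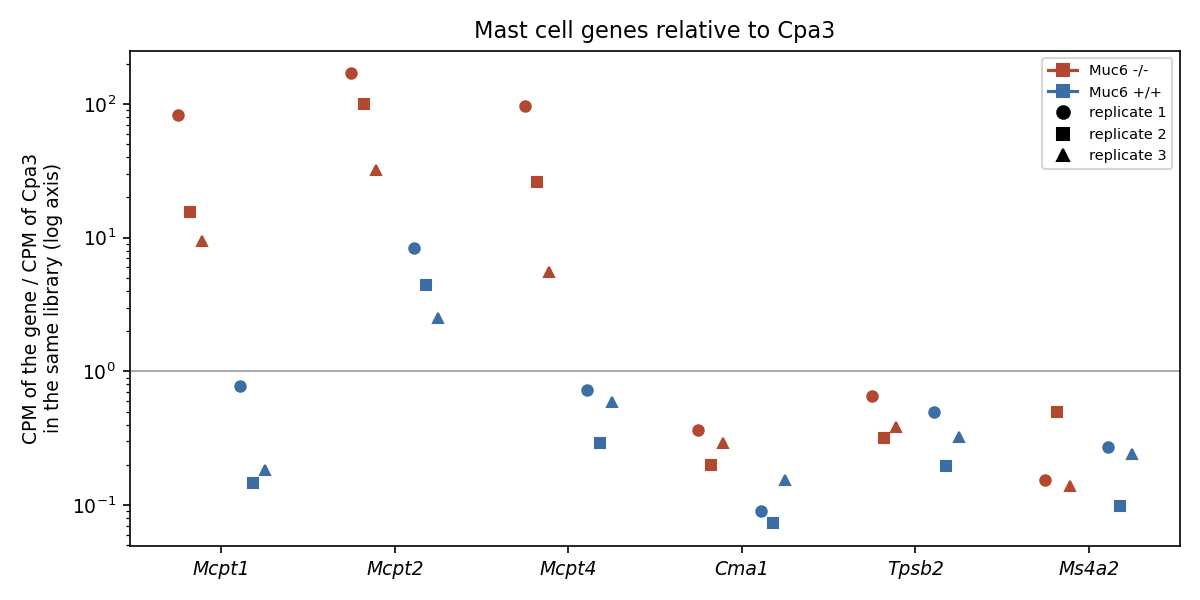
CPM of 6 mast cell genes divided by the CPM of Cpa3 in the same library (log axis), Muc6 -/- left and Muc6 +/+ right for each gene, with point shapes for the replicate number. Mcpt2 is at 32.2 to 170 times Cpa3 in the knockout and at 2.52 to 8.41 times in the wild type, and Tpsb2 and Ms4a2 overlap between genotypes.

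The knockout libraries differed among themselves in 2 ways. Mcpt1, Mcpt2 and Mcpt4 were each highest in knockout 1, by 5.18, 1.88 and 6.28 times over the lowest knockout library. Cma1, Tpsb2, Tpsab1 and Cpa3 were each highest in knockout 3, Cpa3 by 2.82 times over the lowest. Together the 3 chymases summed to 863, 354 and 327 CPM in knockout 1, 2 and 3, against 11.8, 11.3 and 13.6 CPM in wild type 1, 2 and 3. The 4 remaining connective tissue type genes summed to 5.1, 3.78 and 11.9 CPM in knockout 1, 2 and 3, against 2.06, 3.04 and 6.67 CPM in wild type 1, 2 and 3. In the wild type these 4 were each highest in wild type 3, which had the most muscle transcripts of all libraries, but in the knockout the muscle list was highest in knockout 2. The part of tissue depth in these values was not tested.

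**Figure D5:**
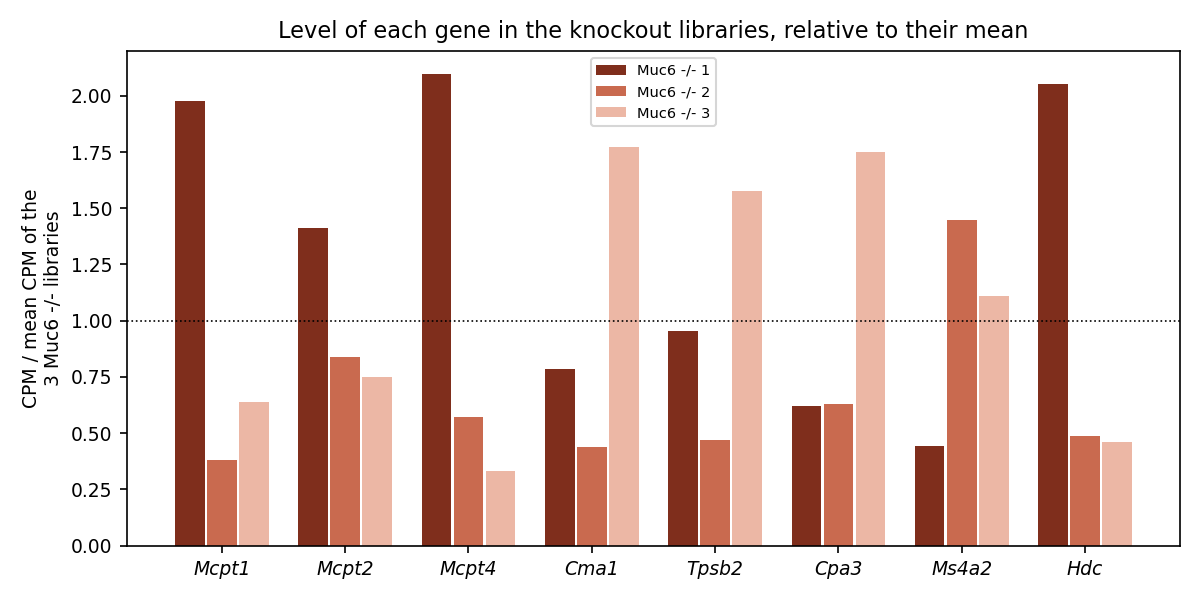
CPM of each tested mast cell gene in knockout 1, 2 and 3 divided by the mean of the 3 knockout libraries, with a dotted line at the mean. Mcpt1, Mcpt2, Mcpt4 and Hdc are highest in knockout 1, Cma1, Tpsb2 and Cpa3 in knockout 3, and Ms4a2 in knockout 2.

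Over the 6 libraries, the 5 genes whose log2 CPM most resembled that of Cpa3 were Lig4, Atg16l2, Ssx2ip, Sptb and Spop, with Pearson r of 0.991 to 0.952. None of these was called between the genotypes (log2 differences of 0.10 to 0.42). These libraries share their depth and composition scaling, and with 6 points and 12400 candidate genes such values are a description.

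Receptors and transcription factors of mast cells gave 3 of 10 tested genes higher and 0 lower, with 5 higher and 0 lower at an unadjusted p under 0.05, with DESeq2 and with limma-voom alike. Over all tested genes, 19.3% were called higher and 19.2% lower (edgeR). DESeq2 called 5888 and limma-voom 5287 of 14017 genes, either way. The stem cell factor receptor gene Kit, which mast cells share with pacemaker cells of the gut wall, was at 7.94, 23.9 and 34.1 CPM in knockout 1, 2 and 3, against 3.48, 7.59 and 13.9 CPM in wild type 1, 2 and 3, and did not pass (log2 difference 1.41, adjusted p = 0.167). The IgE receptor alpha chain gene Fcer1a was at 0.623 to 1.31 CPM in the knockout and at 0 to 0.522 CPM in the wild type (adjusted p = 0.127), and Gata2 at 0.935 to 2.27 CPM in the knockout and 0.281 to 0.754 CPM in the wild type (adjusted p = 0.0605). Mrgprb2, a receptor of connective tissue mast cells, had 11 counts in the knockout and 9 in the wild type, and Gata1 had none.

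Those that rose were Enpp3, Csf2rb and Il1rl1, none of them restricted to mast cells. Enpp3, an ectonucleotidase used to detect activated basophils and mast cells in humans, was at 28.3, 31.9 and 58.4 CPM in knockout 1, 2 and 3, against 4.02, 4.22 and 4.93 CPM in wild type 1, 2 and 3 (log2 difference 3.17, SE 0.31, adjusted p = 6.5e-04). The cytokine receptor subunit Csf2rb, shared by IL-3, IL-5 and GM-CSF, rose by 3.89 (adjusted p = 0.00202). Il1rl1, the IL-33 receptor, was at 71.8, 279 and 238 CPM in the knockout libraries and at 0.326, 11.6 and 8.41 CPM in the wild-type libraries (4.86, adjusted p = 0.026). Its call ended without knockout 2, knockout 3, wild type 2 or wild type 3 (adjusted p 0.0626 to 0.087), and also when no gene was filtered for low counts (0.0694). Among the knockout libraries, Il1rl1 was lowest in knockout 1, the one with the most Mcpt1 and Mcpt4. Without both libraries numbered 1, 6 of 11 genes of this list were higher, as were 6 of 10 with total counts in place of composition scaling. More genes were called over the whole table too, either way. They numbered 6868 of 14321 without those libraries and 6821 of 14017 with total counts, against 5386 of 14017 in the main fit.

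Of 13 genes of granule matrix and mediator synthesis, 4 were higher, 2 were lower and 7 did not pass, beside 38.4% called over all tested genes, so the list's share of calls is not a result about it. Rab27b, which guides granules to the membrane in many secretory cells, was at 188 to 225 CPM in the knockout and at 792 to 838 CPM in the wild type and fell by 1.98 on the log2 scale (adjusted p = 1.19e-04). Maob, a monoamine oxidase gene, fell by 1.95 (adjusted p = 4.96e-04). Alox5ap, needed for leukotriene synthesis, and Ndst2, which sulfates heparin, rose by 1.49 and 0.52 (adjusted p = 0.0269 and 0.0298), but each call ended without knockout 1, knockout 3 or wild type 2, and for Ndst2 also without knockout 2 or wild type 3 (adjusted p 0.0619 to 0.0879). Without both libraries numbered 1, 1 gene of the list was higher and 3 were lower, beside 6868 of 14321 genes called either way over the whole table.

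The list of growth, recruitment and type 2 cytokine genes gave 6 of 13 higher and 0 lower, with 7 and 0 at an unadjusted p under 0.05 or with DESeq2, and 6 and 0 with limma-voom. Of all tested genes, 19.3% were called higher and 19.2% lower (edgeR). DESeq2 called 5888 and limma-voom 5287 of 14017 genes, either way. Of the 6, Il6, Itgae, Itgb7 and Madcam1 passed the low-count filter only through the knockout libraries, so the filter favoured higher calls. Il33, an epithelial and stromal alarm cytokine that activates mast cells, was at 160, 148 and 193 CPM in knockout 1, 2 and 3, against 37.4, 54.6 and 35 CPM in wild type 1, 2 and 3 (log2 difference 1.98, SE 0.20, adjusted p = 6.31e-04). Tgfb1, the cytokine under which mouse mast cells in culture turn on Mcpt1, was at 29.3, 20.4 and 15.6 CPM in knockout 1, 2 and 3, against 2.93, 3.15 and 4.23 CPM in wild type 1, 2 and 3 (2.66, SE 0.28, adjusted p = 6.99e-04). Itgae, an integrin chain of cells within the epithelium, rose by 2.89 (adjusted p = 0.00525). Il6 had 122 counts in the knockout and 0 in the wild type, at least 30.8-fold higher (adjusted p = 0.00736). Kitl, the ligand of Kit, was at 83.7 to 90 CPM in the knockout and at 68.5 to 126 CPM in the wild type and did not pass (adjusted p = 0.314). Among T cell cytokine genes, Il4 was detected in every library, with 21 counts in the knockout and 12 in the wild type, and was not tested. Il3 and Il9 had 0 counts in all 6 libraries, Il5 had 4 counts in the knockout and 0 in the wild type, and Il13 had 3 and 0. Without both libraries numbered 1, 6 were higher and 2 lower, and with total counts 9 of 13 were higher. In these settings 6868 of 14321 and 6821 of 14017 genes of the whole table were called either way, against 5386 of 14017 in the main fit.

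Among genes that receive or clear histamine, 1 of 3 tested rose and 1 fell, beside 38.4% called either way over all tested genes. The one that rose, Hrh1, passed the low-count filter only through the knockout libraries. The one that fell, Hrh2, passed it only through the wild-type libraries. The H1 receptor gene Hrh1 was at 3.95, 2.66 and 1.92 CPM in knockout 1, 2 and 3, against 0.0543, 0 and 0.232 CPM in wild type 1, 2 and 3 (log2 difference 4.83, SE 0.84, adjusted p = 0.00436). The H2 receptor gene Hrh2, known for driving acid secretion, was at 0.17 to 0.332 CPM in the knockout and at 0.761 to 1.51 CPM in the wild type and fell by 2.29 on the log2 scale (adjusted p = 0.0157), a call that ended without knockout 3, wild type 2 or wild type 3 (adjusted p 0.0601 to 0.0624). Aoc1, which breaks histamine down, was not tested, with 157 counts in the knockout and 0 in the wild type, at least 39.6-fold higher. Those counts were 5, 70 and 82 in knockout 1, 2 and 3, so knockout 1 added little to them.

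Markers of other blood cells are given by list, as sums and counts. Every count of called genes from the main fit stands beside 19.3% of all tested genes called higher and 19.2% called lower (edgeR). Over the whole table, DESeq2 called 5888, limma-voom 5287 and total counts 6821 of 14017 genes, either way. Without both libraries numbered 1 it was 6868 of 14321. Counts from those settings stand beside these numbers. Summed over 7 basophil genes, levels were 3.1 to 5.8 CPM in the knockout and 1.57 to 2.96 CPM in the wild type, with 0 of 3 tested genes called (edgeR, 1 at an unadjusted p under 0.05, 0 with DESeq2 or limma-voom, 2 with total counts), and the defining basophil genes Mcpt8 and Prss34 had 2 and 0 counts in the knockout and none in the wild type. Eosinophil genes summed to 3.24 to 6.37 CPM in the knockout and 1.68 to 5.16 CPM in the wild type, with Epx, Ear1 and Ear6 at 0 in every library. Of the other eosinophil genes, Prg2 had 17 counts in the knockout and 0 in the wild type, Ear2 had 37 and 12, Ccr3 had 24 and 5, and Siglecf, the only one tested, did not pass (adjusted p = 0.602). Macrophage genes summed to 108 to 138 CPM in the knockout and 12.4 to 95.9 CPM in the wild type, with 0 of 11 called (edgeR). At an unadjusted p under 0.05, 4 macrophage genes were higher, as were 4 with DESeq2, 3 with limma-voom, 4 with total counts and 5 without both libraries numbered 1. Of 6 general leukocyte genes 3 were higher and 1 lower, with sums of 102 to 153 CPM in the knockout and 115 to 141 CPM in the wild type, which Lcp1, the lower one, dominated. The Lcp1 call ended with total counts (adjusted p = 0.242) and without knockout 2, knockout 3 or wild type 2 (0.0571 to 0.0636). The pan-leukocyte gene Ptprc was at 14.6, 8.02 and 9.12 CPM in knockout 1, 2 and 3, against 1.25, 3.66 and 5.16 CPM in wild type 1, 2 and 3 (log2 difference 1.66, adjusted p = 0.0369). That call ended without knockout 1, knockout 2, knockout 3 or wild type 2 (adjusted p 0.0605 to 0.105). Of 13 lymphocyte genes 3, namely Cd4, Cd79a and Jchain, passed the low-count filter and were higher. They passed it only through the knockout libraries, so the filter favoured higher calls and this count is not read as a result. The list summed to 44 to 97.3 CPM in the knockout and 0.844 to 1.47 CPM in the wild type. Jchain, which encodes the joining chain of secreted antibodies in plasma cells, made up most of the knockout sums, at 75.9, 40 and 91.6 CPM in knockout 1, 2 and 3, against 0.163, 0.225 and 0.348 CPM in wild type 1, 2 and 3 (edgeR adjusted p = 1.99e-04). Of these, the call of Cd79a ended without any 1 library other than wild type 1 (adjusted p 0.0595 to 0.109) and that of Cd4 without knockout 3 or wild type 2 (0.0542 and 0.051). Genes of hormone cells, which include the histamine-making enterochromaffin-like cells of the stomach, were lower in 4 of 8 tested and higher in 0 (5 and 0 at an unadjusted p under 0.05, with DESeq2 and with limma-voom). Without both libraries numbered 1, 7 of 9 were lower, beside 6868 of 14321 genes called either way over the whole table. The calls of Sst and Syp each ended without knockout 2 or any 1 wild-type library, and that of Syp also without knockout 3 (adjusted p 0.0555 to 0.121). Those of Gast (log2 difference -5.99, edgeR adjusted p = 4.98e-04) and Pcsk1 (-2.95, adjusted p = 0.00866) held without any 1 library. The list was not split by kind of hormone cell, so these calls are not read as a result about enterochromaffin-like cells. In the same list, Cckbr, the gastrin receptor gene of those cells, had 26 counts in each genotype. Those were 1, 7 and 18 in knockout 1, 2 and 3, and 6, 9 and 11 in wild type 1, 2 and 3. Scaled to library size, the knockout to wild type ratio was 0.758 (exact binomial 95% interval 0.423 to 1.36, counting error only). How far any of these cells bear on the values of the 9 genes was not tested.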

How the data were processed

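Per the labels' protocols, libraries were made from antral mucosa RNA with a TruSeq Stranded mRNA kit. The authors deposited estimated counts per gene, a unit taken from the values, since 28.8% to 34.3% of those above 0 are not whole. Per the submitters' processing notes the build was mm10, and no source used here names the aligner, counter, annotation or use of strand. Identifiers were matched to symbols, exon lengths and coordinates in GENCODE M21 (34582 of 34866). Promoters came from RefSeq.

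Counts were rounded and filtered with filterByExpr, which left 14017 genes, scaled with TMM, and compared between genotypes with edgeR 4.0.16 (R 4.3.3) robust quasi-likelihood fits, with Benjamini-Hochberg adjustment over all tested genes and a threshold of 0.05. SE is the log2 fold change divided by the root of its F statistic. A count was worth 0.0416 to 0.058 CPM, and floors of 3 counts over a group cover counting error only. Same-numbered libraries deviated together with correlations of 0.252, 0.0908 and 0.191, and the main fit did not treat them as pairs. Whether they shared a batch was not tested. Replicates differed by more than counting noise (chi-square over its degrees of freedom, 16 to 79.6), so each library was 1 replicate. The p-values measure only how far these samples vary, which could be technical variation.

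Named genes are all 9 members, up to 4 called genes with the smallest adjusted p of each pathway list, and the 5 nearest to Cpa3. Lists of other cell types are given by counts and sums, not by that rule. Kit, Fcer1a, Gata2, Kitl, Ptprc, Lcp1, Cd4, Cd79a, Jchain, Sst, Syp, Gast, Pcsk1, Siglecf, Il4, Aoc1, Cckbr, Itgb7, Madcam1 and genes at or near 0 counts were named after their values were seen. The members and lists were chosen with earlier results of these data known. Alternatives were other scalings and filters, DESeq2 1.42.0, limma-voom (limma 3.58.1), a replicate block, other thresholds and libraries left out.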

Additional observations from a re-analysis of the deposited data

How the results depend on the processing

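Of the 9 genes, 3 were called higher and 0 lower with RLE, upper quartile or total count scaling, with no filter or one of 1 CPM in 3 libraries, with DESeq2, at a false discovery rate of 0.01 or 0.1, without any 1 library, and without both libraries numbered 1. With limma-voom 1 was higher, Mcpt2. With the replicate block 4 were higher, the added gene being Cma1 (1.97, adjusted p = 0.0441). The block gave 5069 changed genes. Same-numbered libraries correlated at 0.252, 0.0908 and 0.191, not all above 0.1, and 4 of 6 libraries resembled their own number most (not knockout 2 or wild type 3). The main fit took the samples to share only a number, and a batch by number was not tested. With total count scaling the median gene shifted by 0.417 (log2). Genes changed between the genotypes numbered 5386, and 3342 to 6009 when 1 library was left out. They numbered 5888 with DESeq2, 5287 with limma-voom, 6821 with total counts and 6868 without both libraries numbered 1. No share over all genes was computed for an unadjusted p. Hdc turned to -0.222 without knockout 1 (range with 1 library left out -0.222 to 1.204) and to -0.194 without both libraries numbered 1, and Cpa3 to -0.026 without knockout 3 (range -0.026 to 1.155), none of them called. The cause of these changes was not tested. Differences of Cma1, Tpsb2, Cpa3, Ms4a2 and Hdc rest on few counts, and a p that misses the threshold does not show that the genotypes were alike. The mucosal share of chymase counts was 76.8% to 84.6% in the knockout and 85.1% to 92.2% in the wild type when 1 library was left out, and 81.3% and 88.1% per exon length.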
